A study of Homo sapiens with 3 samples.

Results

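Of the 8230 peaks that the list of anti-FOXM1 ChIP replicate 2 held on chromosomes 1 to 22 and X, 2514 (30.5%) overlapped no peak of replicate 3 by even 1 bp. These replicate 2 only peaks are described here. They were chosen by peak positions in the 2 lists, so their strength and width in replicate 2 and their distance from replicate 3 peaks belong to the selection and are given as a description. The remaining 5716 peaks of replicate 2 are called shared below. In the other direction, 5788 of 11457 replicate 3 peaks (50.5%) overlapped no replicate 2 peak.

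FOXM1 is a forkhead transcription factor. It is best known for raising the expression of genes needed for G2 and for mitosis, in part together with the MuvB complex at promoters that carry the cell cycle homology region (CHR). It is often highly expressed in hepatocellular carcinoma. In ChIP-seq, chromatin is sheared and pulled down with an antibody, and a peak caller lists the places where sequenced fragments exceed the local background. A place just above the threshold in the first library can fall just below it in the next, and a list does not show what lay below the threshold.

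The series held 3 libraries from untreated Huh7, a long-established human line derived from hepatocellular carcinoma: 1 input made without antibody, and 2 libraries made with the same anti-FOXM1 antibody, numbered replicate 2 and replicate 3. The input had no peak list here. Whether separate cultures were used for the ChIP libraries is not stated in the labels. All members came from 1 library, and peaks of 1 library are not replicates of a condition, so no p-value is given. Shares carry exact Clopper-Pearson 95% intervals, which cover counting error only. Fold enrichment and −log10 q at the summit are the authors' values for each peak, fold being a linear ratio over the local background. The weakest listed peaks had −log10 q of 1.32 (replicate 2) and 1.31 (replicate 3). Specificity for FOXM1 was not tested, since neither a control antibody nor cells lacking FOXM1 were among the libraries analysed.

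The upstream promoter sequences of 5 genes are shown because their windows held replicate 2 only summits that were among the 6 of highest fold in any RefSeq promoter window. The summit left out, near the ends of RAG1 and TRAF6, lay 22 bp after the nearest start, that of RAG1, and so outside the bases that would be printed. Each run holds the 250 bases before the annotated start, 5′ to 3′ along the gene, from RefSeq on GRCh38. Capitals mark matches to any of 11 short motifs on either strand. FAM131B lay at chr7:143362081-143362330 on the minus strand, EFNB2 at chr13:106535663-106535912 (minus), CDK11A at chr1:1724358-1724607 (minus), ABCC6 at chr16:16223495-16223744 (minus) and MSTO1 at chr1:155609920-155610169 (plus).
FAM131B: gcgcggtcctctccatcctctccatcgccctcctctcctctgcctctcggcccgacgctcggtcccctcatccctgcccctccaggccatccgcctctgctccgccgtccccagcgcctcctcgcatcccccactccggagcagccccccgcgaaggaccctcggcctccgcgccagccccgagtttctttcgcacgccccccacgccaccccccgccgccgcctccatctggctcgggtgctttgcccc
EFNB2: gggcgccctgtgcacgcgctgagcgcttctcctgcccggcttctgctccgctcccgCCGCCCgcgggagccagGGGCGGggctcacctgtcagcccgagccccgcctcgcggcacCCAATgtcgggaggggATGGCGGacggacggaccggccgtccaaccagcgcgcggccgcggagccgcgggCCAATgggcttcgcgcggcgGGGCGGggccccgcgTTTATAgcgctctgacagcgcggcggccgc
CDK11A: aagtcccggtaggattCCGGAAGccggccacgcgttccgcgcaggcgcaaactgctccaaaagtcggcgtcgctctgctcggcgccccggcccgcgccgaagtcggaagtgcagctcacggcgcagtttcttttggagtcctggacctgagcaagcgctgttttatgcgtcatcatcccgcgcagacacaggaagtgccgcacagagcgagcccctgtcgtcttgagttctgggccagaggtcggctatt
ABCC6: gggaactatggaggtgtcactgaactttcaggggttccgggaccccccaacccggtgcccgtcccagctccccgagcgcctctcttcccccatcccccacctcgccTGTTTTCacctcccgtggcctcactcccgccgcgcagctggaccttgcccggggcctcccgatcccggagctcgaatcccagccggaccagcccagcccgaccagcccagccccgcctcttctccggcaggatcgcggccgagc
MSTO1: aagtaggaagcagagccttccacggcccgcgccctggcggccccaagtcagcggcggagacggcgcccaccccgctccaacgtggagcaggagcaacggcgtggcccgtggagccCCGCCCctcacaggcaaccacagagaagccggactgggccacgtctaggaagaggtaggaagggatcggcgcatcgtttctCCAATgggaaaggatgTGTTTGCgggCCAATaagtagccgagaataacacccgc
FAM131B had its summit at base 135 of this run, 116 bp before this start, with fold 5.68 and no motif match. This start is internal to the annotated gene, so the peak, 8796 bp from the nearest gene end, is not counted at a gene end below. A replicate 3 peak lay 109 bp from its edge. EFNB2, which encodes the ligand ephrin-B2, had its summit at base 183 with fold 5.55. Its run held 3 GC boxes, 2 CCAAT boxes, a YY1 motif and a TATA box. CDK11A, a cyclin-dependent kinase gene with a near-identical neighbour, CDK11B, had its summit at base 146 with fold 5.38 and a single ETS core. ABCC6, a transporter gene of liver and kidney with pseudogene copies nearby, had its summit at base 172 with fold 5.29 and 1 match to TGTTTNC, the looser forkhead core, at base 107. MSTO1 had its summit at base 207 with fold 5.26, and its run held 1 GC box, 2 CCAAT boxes and 1 looser forkhead core. It too lay more than 1 kb from either annotated end of the gene. In these last 4 cases the nearest replicate 3 peak lay between 21435 bp (CDK11A) and 3248527 bp (EFNB2) away. A letter match is a description of the window and not evidence of a bound factor.

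The members were among the weaker and narrower peaks of their library. Median fold was 3.59 in the members and 3.83 in shared replicate 2 peaks, and median −log10 q was 3.26 and 4.24. Median width was 182 bp against 261 bp. Among the weakest 10% of replicate 2 peaks by −log10 q, 47.3% had no replicate 3 overlap (389 of 823), and among the strongest 10% it was 7.65% (63 of 823). Of peaks under 150 bp wide 50.4% had no overlap (696 of 1380), and of peaks of 500 bp or more 2.73% (23 of 844). A wide peak has more room to overlap another, and the part of width in the selection was not tested. These values come from the same calls that the selection used.

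**Figure D1:**
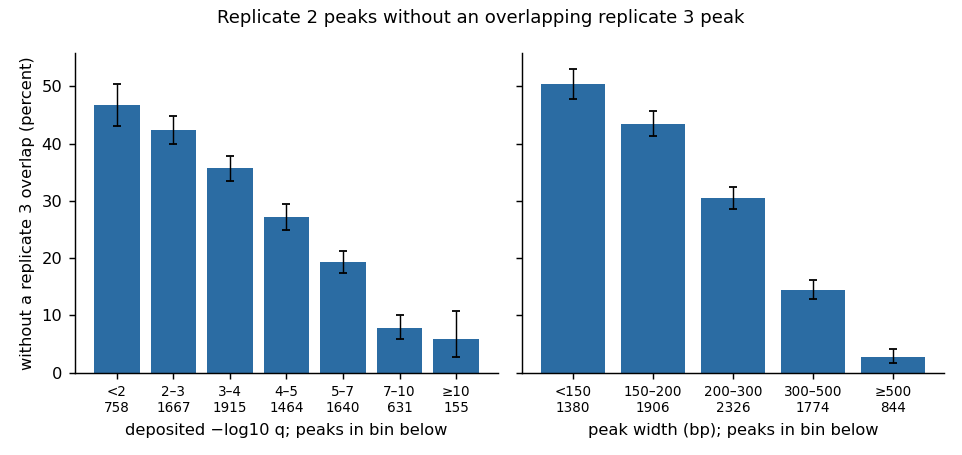
Percent of replicate 2 peaks that overlapped no replicate 3 peak, by deposited −log10 q (left) and by peak width in bp (right). Bars are shares with exact 95% intervals and the number of peaks stands under each bin. The share falls from 46.7% below a −log10 q of 2 to 5.81% at 10 or more.

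Fragment counts rebuilt from the deposited fold and p give the distance of members from the threshold. The fewest fragments whose loss would bring p below the weakest listed had a median of 6 in members and 8 in shared peaks. The median member had 24 fragments over its summit (range 15 to 91) on a background of 5, and the median shared peak had 27. Replicate 2 counts here and below are before scaling to the control (scale 0.848). In the rebuilding model fold is taken after the same constant is added to the scaled count and to the background. For both reasons a count divided by its background exceeds the fold. With 3 fragments fewer, 567 of 2514 members (22.6%, 95% interval 20.9 to 24.2) would have had a p weaker than any listed in replicate 2. Among shared peaks the share was 12.1% (11.3 to 13.0). Over a background of 5, 19 fragments were needed to reach the weakest listed p in either library. The fragments that replicate 3 held at the members' positions were not analysed here, and whether they came near the threshold was not tested.

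The distance from a member to the nearest replicate 3 peak, counted as bp between the facing edges, fell into 2 ranges. In 1022 members (40.7%, 95% interval 38.7 to 42.6) a replicate 3 peak lay within 1 kb, and 864 of these were within 500 bp. In only 314 (12.5%) it lay from 1 to 10 kb away. In 674 (26.8%) it lay 10 to 100 kb away, and in 504 (20.0%) 100 kb or more, of which 32 were 1 Mb or more. The median over all members was 6482 bp. The near members thus stood beside a replicate 3 call, with a median of 434 bp between the summits of the libraries (quartiles 303 and 631). The nearest replicate 3 peak overlapped no replicate 2 peak in 541 of these 1022 cases, so that each library had called a different stretch of the same kilobase. In the other 481 that peak was shared with another replicate 2 peak, and the member stood beside a shared region. Median fold was 3.62 in near members and 3.59 in members without a replicate 3 peak within 1 kb.

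**Figure D2:**
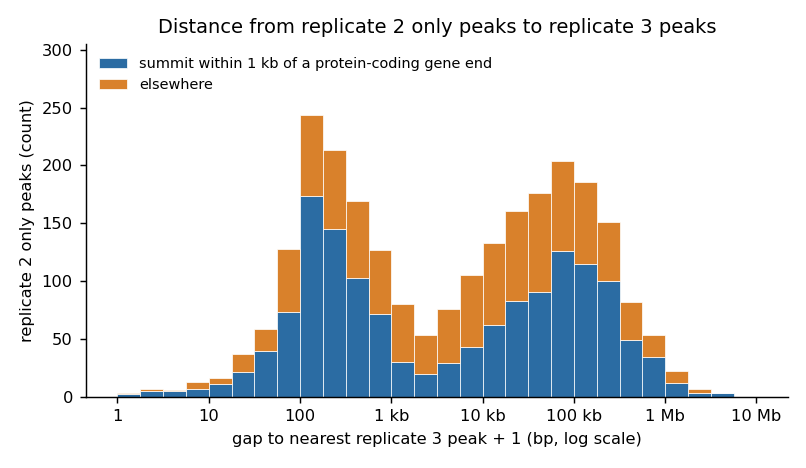
Number of replicate 2 only peaks by gap to the nearest replicate 3 peak (bp + 1, log scale) split by whether the summit lay within 1 kb of a protein-coding gene end. The counts have a mode near 100 to 300 bp and another near 100 kb, with a dip between 1 and 10 kb that holds 314 of the 2514 peaks.

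The edge of the selection was fine. In 3 members the peak touched a replicate 3 peak without sharing a base: at PTGER4, a prostaglandin E2 receptor gene (fold 3.33 in replicate 2 and 2.26 at the touching replicate 3 peak), inside SLC5A10 and FAM83G (2.88 and 3.77), and at HUWE1, a ubiquitin ligase gene (2.81 and 3.43). In 3 other replicate 2 peaks an overlap of 1 bp kept the peak out of the set: at TYSND1 and SAR1A (4.27 and 4.62), within the noncoding RNA gene CHASERR (3.87 and 3.78), and at ITGA3, an integrin gene (3.40 and 4.44). In these 6 peaks the folds of the 3 members lay below those of the 3 others, in replicate 3 only by 3.77 against 3.78. The order did not hold for the next members, each 1 bp from a replicate 3 peak. Folds were 4.08 and 3.21 inside RAMP1 and 4.01 and 4.68 at NRIP1, and both replicate 2 values lay above that at ITGA3.

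Most members lay at ends of protein-coding genes, with a lower share than shared peaks had. Of the 2514 summits, 1458 were at most 1 kb from where a protein-coding gene starts or finishes (58.0%, 95% interval 56.0 to 59.9), against 69.5% of shared replicate 2 peaks (68.3 to 70.7). Another 683 (27.2%) lay inside a protein-coding gene away from its ends, against 22%, 185 (7.36%) at or inside genes of other kinds only, against 4.51%, and 188 (7.48%) between genes, against 3.97%. None of these 4 pairs of intervals overlapped. Replicate 3 only peaks had 57.6% at gene ends (56.3 to 58.9), within the members' interval. Positions within exons, introns or UTRs were not analysed here.

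The lower share at gene ends was also seen within coarse strata of −log10 q, and the part of strength in it was not tested. At a −log10 q below 3 it was 57.0% in members (95% interval 53.9 to 60) and 67.2% in shared peaks (64.6 to 69.7), and at 5 or more it was 58.8% (53.6 to 63.9) and 70.5% (68.4 to 72.4). From 4 to 5 it was 63.2% (58.3 to 68.0) and 70.9% (68.0 to 73.6), where the intervals met within rounding. The strata below 5 were added after seeing the data. The stratum of 5 or more is open, and −log10 q reached 12.9 in members and 26.1 in shared peaks. At fold of at least 5 the share was 59.0% in members (47.3 to 70.0) and 66.9% in shared peaks (62.6 to 71.1), with overlapping intervals. Near members had 64.4% at gene ends (61.4 to 67.3) and members without a replicate 3 peak within 1 kb had 53.6% (51.1 to 56.2). The share was lowest, 38.9% of 314, where the gap was 1 to 10 kb, and it was 62.7% of 504 where the gap was 100 kb or more.

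**Figure D3:**
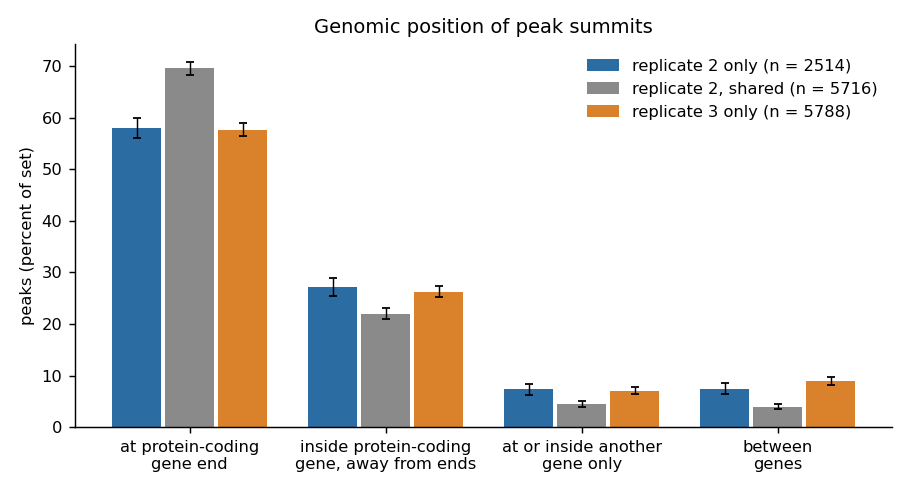
Percent of summits in 4 kinds of position for replicate 2 only peaks, shared replicate 2 peaks and replicate 3 only peaks, with exact 95% intervals (counting error only). Replicate 2 only peaks sit at 58.0% for gene ends, beside 57.6% for replicate 3 only and below 69.5% for shared peaks.

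At gene ends the members marked starts far more often than finishes. Strand was known for all the genes at hand at 1142 of the 1458 gene-end members. There, 1064 (93.2%, 95% interval 91.5 to 94.6) were near starts only, 43 (3.77%) near finishes only and 35 (3.06%) near both. Shared peaks had 93.8%, 2.24% and 3.94%. Around RefSeq starts of protein-coding genes, which left out chromosome 8, 1306 of 2412 members had their summit within 1 kb. Of these 835 (63.9%) lay after the start, and the median position was 92 bp after it (quartiles 85 bp before and 302 bp after). In shared peaks 62.8% lay after the start, with a median of 79 bp. Both sets had their highest bin 100 to 150 bp after the start, with 9.42% of members and 10.7% of shared summits. Shared summits had 10.2% in the last 50 bp before the start, and members had 6.97%.

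**Figure D4:**
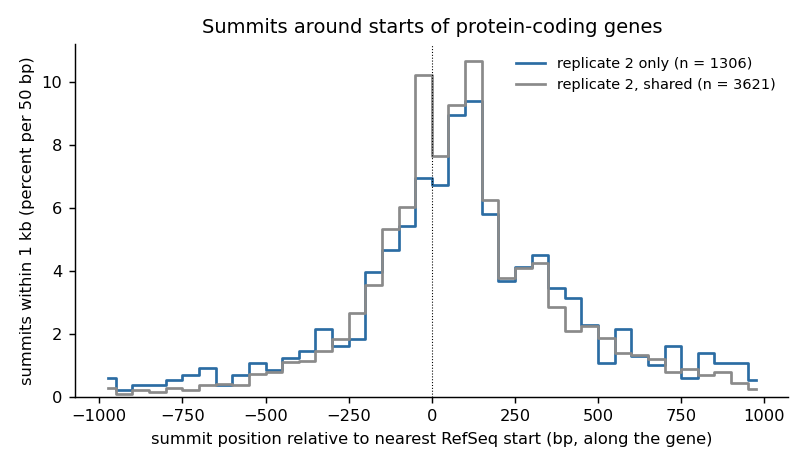
Summit position relative to the nearest RefSeq start of a protein-coding gene (bp along the gene, 50 bp bins), as percent of the 1306 replicate 2 only and 3621 shared replicate 2 summits within 1 kb. Both curves peak 100 to 150 bp after the start, and the shared curve has a further maximum just before it.

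The promoters that members marked were rich in G and C. A member's summit fell in 449 promoter windows (250 bases before to 50 after the start) of 426 genes. Their median GC content was 71.7% (quartiles 67.0 and 75.3), against 75% in 1490 windows with a shared summit and 62.3% over all 22132 windows. The median ratio of observed to expected CpG was 0.896, against 0.924 and 0.738. The GC box GGGCGG, the core of SP and KLF sites, stood in 86.9% of the 449 windows (95% interval 83.4 to 89.8), in 91.8% of shared windows and in 56.3% of all. The forkhead core TGTTTAC stood in 11 windows (2.45%, 1.23 to 4.34), in 1.48% of shared windows and in 2.85% of all. The looser TGTTTNC, which contains it, stood in 9.13% (6.63 to 12.2), in 6.71% of shared windows and in 15.3% of all. The CHR letters TTTGAA stood in 6.01% (4.0 to 8.63), in 4.36% of shared windows and in 12.4% of all. For these 3 the members' share lay between those of shared and of all windows. Each members' interval overlapped that of shared windows (0.928 to 2.23, 5.49 to 8.10 and 3.38 to 5.53). For TGTTTAC it also included the share of all windows. TATAAA (4.23%, 2.08% shared, 9.46% all) and TGANTCA, the AP-1 letters (5.12%, 2.82%, 6.15%), had the same order. Their intervals in members and shared windows overlapped too, and for TGANTCA the members' interval included the share of all windows. The CCAAT box stood in 25.6% of members' windows, 24.7% of shared and 34.6% of all. TTCCCGC (E2F) stood in 11.4%, 12.3% and 8.14%, and CCGGAAG (ETS) in 16.7%, 18.1% and 12.8%. TGACGTC (CREB and ATF) stood in 4.23%, 4.90% and 4.08%, and ATGGCGG (YY1) in 8.24%, 10.5% and 6.99%. Both strands were searched. Base composition differs between these sets and moves with the share of each motif, and its part was not tested.

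Among the 10 members of highest fold (5.65 to 7.25), 3 were at a protein-coding gene end and 4 between genes, and 4 had a replicate 3 peak within 1 kb. Over all 78 members with fold of at least 5, 46 were at a gene end (59.0%, 95% interval 47.3 to 70.0), near the 58.0% over all members. The highest fold, 7.25, lay on chromosome 1 (151600799 to 151601037), 11068 bp outside SNX27, an endosomal sorting gene, and rested on 33 fragments (exact Poisson 95% interval 22.7 to 46.3) over a background of 3. The replicate 3 peak nearest to it, 10977 bp away at SNX27, had fold 2.75. On chromosome 17 (2053740 to 2053952), 1257 bp from the tumour suppressor gene HIC1, fold was 6.84 on 34 fragments, and a replicate 3 peak with fold 5.10 began 26 bp away. Also on chromosome 17 (83068136 to 83068270), 7023 bp from the nearest protein-coding gene, LOC124904094, fold was 6.82, and a replicate 3 peak with fold 4.11 lay 374 bp away.

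Some of the strongest members lay in or near genes that have close copies, which were not counted over all members. On chromosome 14 (19157255 to 19157381), between genes and 153562 bp from POTEM, a member of a duplicated family, fold was 7.09 over a background of 2.97. The nearest replicate 3 peak, 58248 bp away at the pseudogene DUXAP9, had fold 8.49. At GAGE12B on chromosome X (49341561 to 49341694), of a tandem family of cancer-testis antigen genes, fold was 5.47 on 44 fragments, and replicate 3 had its nearest peak 9477 bp away at another copy, GAGE13, with fold 4.75. The highest −log10 q of any member, 12.9, lay in the pseudogene REXO1L1P on chromosome 8 (85661100 to 85661259) with fold 4.25 on 64 fragments, and a replicate 3 peak of fold 8.19 stood 232 bp away in the same pseudogene. The member with most fragments, 91 over a background of 24, had fold 3.13 and lay beside an snRNA gene, LOC124904138, on chromosome 17 (43251667 to 43251796). CDK11B (chromosome 1, 1658834 to 1658961; fold 5.98) and CDK11A (1724367 to 1724561; fold 5.38) were both members. Reads from such copies cannot always be placed, so the copy that carries the signal is uncertain.

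The 20 gene-end members of highest fold (5.29 to 6.22) rested on 24 to 44 fragments, and 7 of them had a replicate 3 peak within 1 kb. SMG6, an endonuclease gene of nonsense-mediated decay, overlapped SRR, which encodes serine racemase, at the strongest of these peaks (chromosome 17, 2303511 to 2303770; fold 6.22), and a replicate 3 peak with fold 3.35 began 38 bp away. TENT4B, a noncanonical poly(A) polymerase gene, had fold 5.35, with the nearest replicate 3 peak 86415 bp away. ZFX, a zinc finger transcription factor gene, had fold 5.32, and a replicate 3 peak of fold 3.75 lay 217 bp away.

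Of the 20, 13 had no replicate 3 peak within 1 kb. EFNB2 (chromosome 13, 106535312 to 106535797) had fold 5.55 on 25 fragments (95% interval 16.2 to 36.9). OPRD1, the delta opioid receptor gene, had fold 5.52, and RAPGEF5, an exchange factor gene for Rap GTPases, had 5.61. Their nearest replicate 3 peaks lay 75064 bp and 497165 bp away. SIGIRR, an inhibitory receptor gene of the interleukin-1 receptor family, had fold 5.38 with a replicate 3 peak 9704 bp away in the same gene. Among the other 7, TRAF6 and RAG1, whose ends share a peak (fold 5.38), had a replicate 3 peak of fold 4.11 at 262 bp. DMTN and FGF17 (fold 5.59) had one of fold 4.24 at 409 bp.

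PNPLA3, which encodes a lipid droplet protein of hepatocytes, had fold 5.31 (chromosome 22, 43923823 to 43924193), and a replicate 3 peak of fold 4.16 lay 115 bp away in the same gene. DECR2, a peroxisomal enzyme gene of fatty acid oxidation, had fold 5.46 with a replicate 3 peak 3989 bp away. ABCC6 had fold 5.29 and none within 573074 bp. Besides CDK11B, CDK11A and GAGE12B, described above, the others were SHD (5.75), CACHD1 (5.42), METRNL (5.34), SRPRA with FOXRED1 (5.31) and ERBIN (5.29). Of these, METRNL and ERBIN had a replicate 3 peak 105 bp and 128 bp away.

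Some isolated members stood at gene ends. Of those with −log10 q of at least 5, the one farthest from any replicate 3 peak lay at an end of LRFN5, a neuronal adhesion gene (chromosome 14, 41606895 to 41607058), with fold 4.96 on 29 fragments and no replicate 3 peak for 3290229 bp. EFNB2 followed. RAP2B, a Ras family GTPase gene, had fold 4.52 on 29 fragments and a gap of 893460 bp.

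Gene by gene, 1582 of 19974 protein-coding genes (7.92%) had a replicate 2 only summit within 1 kb of an end. Of these genes 388 (24.5%, 95% interval 22.4 to 26.7) also had a shared replicate 2 summit there. Any replicate 3 summit within 1 kb of an end was found for 721 of them (45.6%, 43.1 to 48.1), and for 32.1% of all protein-coding genes. The remaining 861 genes (54.4%) had a replicate 2 only summit and no replicate 3 summit by this rule. For 341 genes the replicate 3 summits within 1 kb of an end were all of unshared peaks. Some of these genes, such as ZIC5 and FOXE1, still had a shared replicate 2 summit there. A peak near several genes counted for each of them.

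Genes of the cell cycle were examined as a group known for FOXM1. Of 59 G2/M and mitosis genes 8 had a replicate 2 only summit (13.6%, 95% interval 6.04 to 25), and the interval includes the 7.92% of all genes. CENPA, the centromeric histone H3 variant, had fold 4.82 on 26 fragments, 19 bp outside its start. CDCA8, a chromosomal passenger subunit, had 4.16 at a summit 764 bp outside its start. That summit lay inside AIRIM, 490 bp from the start of AIRIM. TPX2, a spindle assembly factor, had fold 3.13 on 36 fragments over a background of 9.07. CCNB1, the mitotic cyclin B1, had fold 2.56 with −log10 q of 1.82, near the lowest listed value, and PTTG1, the securin gene, had 2.56 with 2.36. CKAP2 (3.20), CKS2 (3.0) and GTSE1 (2.64) completed the set. Median fold over the 8 was 3.07, against 3.61 over all 1582 genes. Of the 8 only CKS2 also had a replicate 3 summit within 1 kb of an end, with fold 3.20, against 45.6% of all 1582 genes. In all 21 of the 59 genes had a replicate 3 summit there, against 32.1% of all protein-coding genes. FOXM1 itself had no replicate 2 only peak, and the nearest lay 200327 bp away.

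Of 52 genes of G1/S and DNA replication 8 had a replicate 2 only summit (15.4%, 95% interval 6.88 to 28.1). MCM4, a helicase subunit gene, had fold 4.84 at a peak that also lay within 1 kb of PRKDC, the gene of the DNA-dependent protein kinase. RRM2, a ribonucleotide reductase subunit, had 4.16, and CHAF1A, a chromatin assembly factor, had 3.22. CDT1, a replication licensing gene, was the only one of the 8 that also had a replicate 3 summit at an end, against 45.6% of all 1582 genes. Its fold there was 5.60 against 3.14 in replicate 2, and 176 bp separated the peaks. Of 39 DNA repair genes 4 had a replicate 2 only summit (10.3%, 2.87 to 24.2): PRKDC, LIG4 (3.59), XRCC3 (3.42) and XPA (2.95).

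Ribosomal protein genes had the highest share of the 10 lists examined. Of 72 genes 12 had a replicate 2 only summit (16.7%, 95% interval 8.92 to 27.3), whose lower bound lies above the 7.92% of all genes. The interval is not adjusted for the choice of the highest of 10 lists. A shared replicate 2 summit was found for 12 of the 72, against 19.2% of all genes. Any replicate 3 summit was found for 24 of the 72, against 32.1% of all genes. RPL26 had fold 4.26 and RPL22 had 4.13. Of the 12, 3 also had a replicate 3 summit at an end, against 45.6% of all 1582 genes with a replicate 2 only summit. Wnt and beta-catenin pathway genes had 7 of 45 (15.6%, 6.49 to 29.5). Among them were AXIN2 (4.58), DVL1 (4.52) and AXIN1 (4.22), members of the destruction complex or its regulators. Each had a replicate 3 summit at an end, with folds of 3.83, 6.70 and 5.03, and each also carried a shared replicate 2 peak there. WNT11, a ligand gene, had 4.53 and no replicate 3 summit at an end. Of 26 p53 target genes 4 had a replicate 2 only summit (15.4%, 4.36 to 34.9): PLK2 (4.57), TP53INP1 (4.56), FDXR (4.10) and ZMAT3 (3.41). The summit counted for FDXR lay 780 bp beyond its finish and 185 bp from an end of GRIN2C.

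Of 26 hepatocyte transcription factor genes 4 had a replicate 2 only summit (15.4%, 95% interval 4.36 to 34.9). ONECUT1 (hepatocyte nuclear factor 6) had fold 5.14 on 27 fragments, 89 bp outside its start, and the nearest replicate 3 peak lay 1101 bp away. FOXA3, a forkhead gene, had fold 4.58 with −log10 q of 8.81 on 42 fragments, 32 bp inside its start, and a replicate 3 peak with fold 3.17 lay 961 bp away. HHEX (3.68) and CEBPB (3.52) had a replicate 3 peak 130 bp and 143 bp away, and each also carried a shared peak. Of 50 genes for hepatocyte products only C5, a complement gene, had one (2%, 0.0506 to 10.6; fold 3.45). Of 36 blood and immune markers only SPI1 had one (2.78%, 0.0703 to 14.5; fold 4.59). Of 29 neuronal markers 3 had one (10.3%, 2.19 to 27.4): GRIA2 (4.41), ELAVL3 (3.88) and GRIN1 (3.52). Every list but that of ribosomal proteins had an interval that included 7.92%, and nothing particular to a list is drawn from these counts.

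Members were spread over all 23 chromosomes compared. Their share of replicate 2 peaks was highest on X (33 of 75, 44.0%, 95% interval 32.5 to 55.9) and on chromosome 14 (79 of 204, 38.7%, 32.0 to 45.8). It was lowest on chromosome 20 (101 of 404, 25%, 20.9 to 29.5) and chromosome 9 (127 of 484, 26.2%, 22.4 to 30.4). For these 4 chromosomes the interval left out the 30.5% over all. Replicate 3 only peaks made up 54.9% of replicate 3 peaks on X, 60% on chromosome 14, 44.4% on chromosome 20 and 47.8% on chromosome 9, against 50.5% over all. Both shares rest on the same overlaps. Per 100 protein-coding genes, chromosome 20 had 18.8 members and X had 3.89. All replicate 2 peaks differed in the same direction, with 404 for 537 genes on chromosome 20 and 75 for 848 genes on X.

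**Figure D5:**
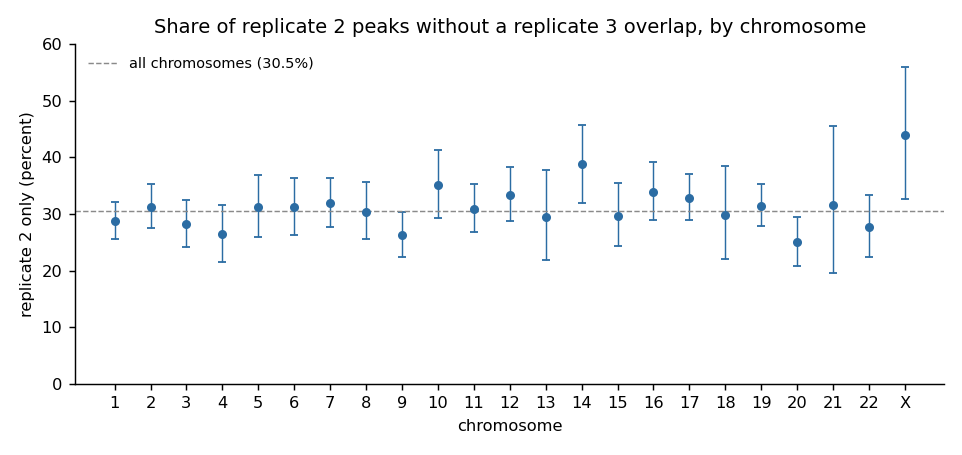
Percent of replicate 2 peaks on each chromosome that overlapped no replicate 3 peak. Points are shares with exact 95% intervals and the dashed line is the 30.5% over all 23 chromosomes, with X (44.0%) and chromosome 14 (38.7%) above it and chromosomes 9 (26.2%) and 20 (25%) below.

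The densest stretch of 1 Mb held 17 members, on chromosome 11 from 66 to 67 Mb, out of 61 replicate 2 peaks there (27.9%). Median fold of these members was 2.80 over a median background of 11.9 fragments, against 3.59 and 5 over all members. The next were chromosome 1 from 1 to 2 Mb and chromosome 9 from 137 to 138 Mb, with 15 members each, of 50 and 46 peaks, and with median backgrounds of 4.28 and 4.54. High backgrounds were rare among members, and 8 of 2514 had at least 20 fragments of background, against 59 of 5716 shared peaks. The highest were a pair inside NUBPL on chromosome 14 (backgrounds 33.5 and 32.0, folds 1.80 and 2.04), chosen for mention after their values were seen.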

How the data were processed

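Peaks from 2 anti-FOXM1 ChIP libraries of Huh7 cells were analysed, and the input library had no peak file here. The submitters' processing notes name BWA, MACS2 2.2.7.1, CASAVA 1.4 and build GRCh38, without saying what each did. Per library, the authors deposited a linear fold ratio, −log10 p and −log10 q values, a score (not used) and a summit offset, a unit of another kind, in bp. Read totals were not analysed here.

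Comparisons used chromosomes 1 to 22 and X, leaving out 41 and 45 peaks, and members had no replicate 3 overlap of 1 bp. Members, lists and rules were chosen with earlier results of these data known. The rule for named peaks took the strongest by fold and −log10 q, overall and at gene ends, the farthest, those at the edge of the selection, and list members. Some of these are not reported here. RefSeq gave 19974 protein-coding genes, and promoter windows with strand for 15812 of them, none on chromosome 8. Of 435 list entries TRAC alone did not match a protein-coding gene. Fragment counts and backgrounds were rebuilt from fold and p by a Poisson model, a step added after seeing the data. The rebuilt −log10 p missed the deposited one by at most 0.001 in 100% of peaks, and of 1456 simulated replicate 2 peaks 100% had the exact count. Scales to a control, taken to be the input, were 0.848 and 0.869. Tools were Python 3.11.15, numpy 2.4.6, pandas 2.3.3, SciPy 1.17.1, matplotlib 3.10.9 and bedtools 2.31.1, whose member count differed by 0.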

Additional observations from a re-analysis of the deposited data

How the results depend on the processing

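The number of replicate 2 only peaks, 2514, depends on what counts as apart. It was 2242 with no replicate 3 peak within 100 bp, 1650 within 500 bp and 1492 within 1 kb. It was 5220 where a replicate 3 summit within 100 bp was needed for sharing and 4891 where reciprocal overlap of at least 50% was. Of the 2514, 374 had −log10 q of at least 5 and 78 had fold of at least 5. The share at protein-coding gene ends, 58.0%, was 44.4% within 500 bp, 74.5% within 5 kb and 66.8% with ends of all gene types. It was 53.6% without a replicate 3 peak within 1 kb and 63.2% at −log10 q from 4 to 5, a stratum added after seeing the data. Under the 500 bp, 5 kb, all-gene, −log10 q and fold settings, shared replicate 2 peaks had 56.1%, 82.9%, 76.5%, 70.5% and 66.9%, and the members 58.8% and 59.0% in the last 2, where for fold the intervals overlapped (47.3 to 70.0 and 62.6 to 71.1). The 1582 genes became 884 without a replicate 3 peak within 1 kb of the member, 861 without genes that had any replicate 3 summit, 251 at −log10 q of at least 5 and 55 at fold of at least 5. Median fold was 4.53 at −log10 q of at least 5. Leaving out a replicate gives no value, since the set needs both lists. No paired analysis was possible because no groups of libraries were compared.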

Other observations

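Small RNA genes were looked at after the values were seen. Within 1 kb of, or inside, snRNA genes lay 8 of 2514 members (0.318%, exact 95% interval 0.137 to 0.626) and 6 of 5716 shared replicate 2 peaks (0.105%, 0.0385 to 0.228). Besides LOC124904138, they stood at RNU1-2 (fold 2.63), RNVU1-27 (3.42), RNU4ATAC (3.52), RNU6ATAC (2.78), RNU7-1 (2.40), RNU6-2 (3.33) and RNU12 (3.54). RNU4ATAC, RNU6ATAC and RNU12 encode RNAs of the minor spliceosome, and RNU7-1 encodes the RNA that processes histone pre-mRNA. Those at RNU7-1, RNU6-2 and RNU12 also lay 274, 115 and 274 bp from an end of a protein-coding gene. At snoRNA genes lay 5 members (0.199%, 0.0646 to 0.464) and 5 shared peaks (0.0875%, 0.0284 to 0.204). Among these members was the peak at SNORD3A, the U3 RNA of ribosomal RNA processing, with fold 4.51 on 36 fragments and −log10 q of 7.36. At tRNA genes lay 10 members (0.398%, 0.191 to 0.730), against 22 shared peaks (0.385%). Many of these genes have copies, and whether reads there map to a single place was not examined.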
